A study of Mus musculus with 23 samples.

Results

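Mature luminal cells of the mouse mammary gland were compared between late and mid pregnancy. The comparison uses 4 of the 23 arrays of the study: 1 array of pregnancy day 16 and 1 of day 19 on the late side, and 2 arrays of day 10, titled replicate 1 and replicate 2. All 4 are from female C57BL/6 mice, an inbred strain, with no genetic change or treatment named in the labels, and the sources used here do not give the ages of the pregnant mice. The study isolated mature luminal cells, luminal progenitors and stem cells from virgin mice, from several days of pregnancy and from retired breeders, and measured their mRNA on Affymetrix arrays. How the cells were sorted and how many animals went into an array are likewise unstated, so p-values measure only the spread between these arrays, which may be technical. Each gene is represented by its probe set of highest mean across the 23 arrays, and 15378 genes were kept. A gene counts as higher in late pregnancy when both late arrays lay above both day-10 arrays, and as lower when both lay below. By that rule 1711 genes were higher and 2829 were lower, which is 11.1% and 18.4% of the genes kept, and the arrays of the other 10838 genes overlapped. With 2 arrays on each side, a sizeable share of genes would fall in such an order by chance. These counts describe the 4 arrays and do not show how many genes changed.

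During pregnancy the luminal epithelium grows and turns into secretory alveoli. Progesterone acts on a subset of luminal cells that carry its receptor and signal to their neighbours, while prolactin acts through the kinase JAK2 and the transcription factor STAT5 on the alveolar cells, together with the alveolar regulator ELF5. In late pregnancy the alveolar cells begin to make milk protein, milk fat and lactose, and after birth the fall in progesterone starts copious secretion.

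Markers of the labelled cell type and of other epithelial cells were read on the 4 arrays. The luminal keratins were near the top of the scale on all 4 arrays. Krt8 was 13.77 and 13.70 on the day-10 arrays, 13.67 on day 16 and 13.83 on day 19, in log2 units, and Krt18 lay between 13.38 and 13.97. Krt14, a basal keratin, was 11.54 and 11.94 on day 10, 10.50 on day 16 and 10.26 on day 19, below its 13.37 to 13.39 on the stem cell arrays of days 10 and 16. The hormone receptor genes that mark mature luminal cells were lower than in virgins. Esr1, the estrogen receptor, was 8.02 and 9.46 on day 10, 7.93 on day 16 and 8.17 on day 19, against 10.95 and 11.97 on the mature luminal arrays of 9-week virgins. The 16 luminal progenitor and alveolar markers had means of 9.11 to 10.06, against 7.60 and 8.05 on those virgin arrays. Of the 19 basal and myoepithelial markers, 15 to 18 lay above the median of their array. How pure the cells were was not tested.

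Some arrays stood apart. Markers of leukocytes, stroma and basal cells were highest on day-10 replicate 2. The 18 leukocyte markers measured had a summed log2 level of 123.2 on it, against 75.3 on day-10 replicate 1, 91.6 on day 16 and 66.7 on day 19, and the 10 fibroblast and stromal markers had 62.9 against 38.2 to 39.3 on the other 3 arrays. No marker of either list was at 0 on any of the 4 arrays. The summed level of the 19 basal markers was 169.1 on day-10 replicate 2 and 139.2 to 146.2 elsewhere. In a bulk sample, fewer cells of a type and less RNA per cell cannot be told apart. The arrays also paired, day 19 with the day-10 array of the same title number and day 16, whose title has no number, by correlation alone. Over all probe sets the day-19 array, titled replicate 1, correlated best with day-10 replicate 1 (Pearson r of 0.952), and the unnumbered day-16 array with day-10 replicate 2 (0.957), while the 2 day-10 arrays correlated at 0.941. These values are across probe sets, which are not independent. A fit with the number as a block is therefore given beside the fit without it, with unnumbered arrays placed from their expression values. The luminal progenitor arrays of days 10 and 16, with 1 array each, moved opposite to the mature luminal and stem cell arrays of those days, as described at the end. Whether their day labels are exchanged was not tested. The levels and differences printed for mature luminal cells are from their own arrays, while the choice of probe set, the filter and the fit draw on all 23.

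In the limma fit over all 23 arrays, 4 genes differed between the late and the day-10 arrays at an adjusted p under 0.05. Of these, 1 rose, 0.0065% of the genes tested, and 3 fell, 0.0195%. For the fit with the replicate number as a block, the unnumbered day-16 array was placed with replicate 2 from the expression values. The p-values with the block rest on that placement, and the counts were 48 higher (0.312%) and 102 lower (0.663%). Of these 150 genes, 141 had arrays that did not overlap, against 4540 of all 15378 genes. The contrast and the rule read the same 4 arrays, so the 141 are no separate support. Of the 150 genes, 120 also passed when values under the array median were raised to it in the fit with the block. The median change of all genes was -0.13 on the log2 scale. In the text that follows, rose and fell are used of genes past the fit with or without the block, each adjusted p is from limma, and an SE is that of the fit whose p follows it.

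Wap, which encodes whey acidic protein of rodent milk, was the gene that rose without the block. It was 7.24 and 7.32 on the day-10 arrays, 13.14 on day 16 and 13.57 on day 19. Both late arrays lay far above both day-10 arrays, with a change of 6.08 ± 0.84 (SE, adjusted p = 0.0462, and 0.00432 with the block). The 3 genes that fell without the block were Piezo2, a stretch-activated ion channel, Ptn, the growth factor pleiotrophin, and Dsp, the desmosomal protein desmoplakin. Piezo2 was 11.10 and 11.16 on day 10, 6.53 on day 16 and 4.58 on day 19, a change of -5.58 ± 0.35 (SE, adjusted p = 4.62e-05). Ptn was 11.33 and 11.77 on day 10, 7.40 on day 16 and 7.65 on day 19, a change of -4.03 ± 0.28 (SE, adjusted p = 5.83e-05). For both genes the late arrays lay far below the day-10 arrays. Dsp was 12.47 and 11.29 on day 10, 7.03 on day 16 and 10.51 on day 19, so most of its change of -3.11 ± 0.43 (SE, adjusted p = 0.0462) came from the day-16 array, and without that array the change was -1.37 (adjusted p = 0.612). The call for Wap was lost when any 1 of the 4 arrays was left out, with changes of 5.86 to 6.29 and adjusted p of 0.0796 to 0.293, and that for Dsp was also lost without day-10 replicate 1 (-2.52, adjusted p = 0.293). For Ptn the probe sets above the filter disagreed, with changes from -4.35 to 0.44, and with all its probe sets averaged the change was -2.65 (adjusted p = 0.226). The other probe sets of Piezo2 and Dsp moved the same way by less, down to -2.98 and -0.58.

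**Figure D1:**
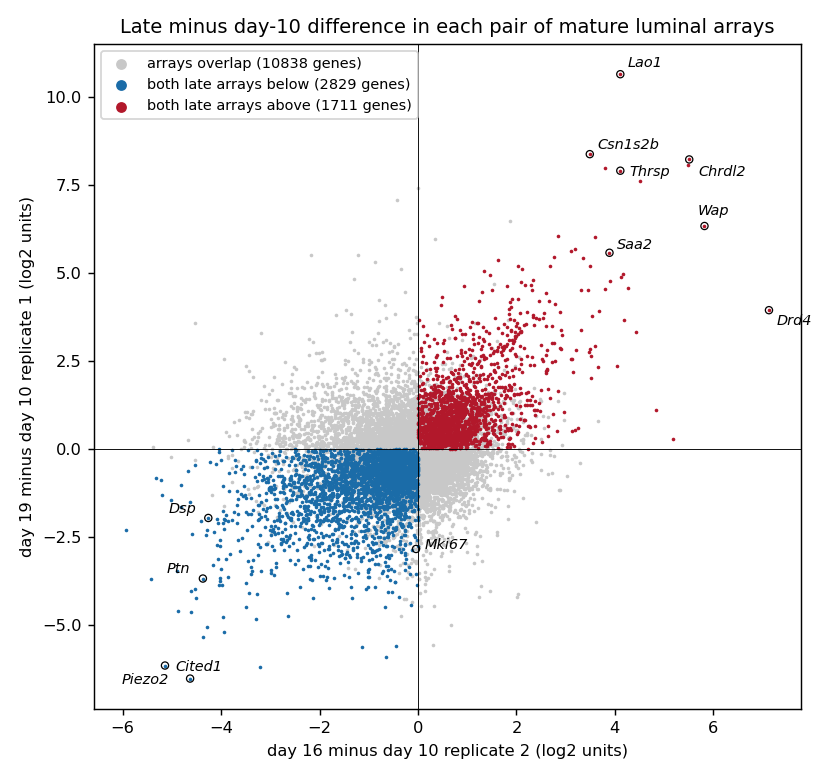
Difference of the day-16 array from day-10 replicate 2 (x axis) and of the day-19 array from day-10 replicate 1 (y axis), in log2 units, 1 point per gene for 15378 genes. Red points are the 1711 genes with both late arrays above both day-10 arrays and blue points the 2829 with both below, and grey points are the 10838 whose arrays overlap. Wap, Lao1 and Chrdl2 lie at the upper right, Piezo2, Cited1 and Ptn at the lower left, and Mki67 is low on day 19 alone.

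Milk protein genes were mostly higher. Of 22 measured, 16 were higher and 0 lower, 72.7% against the 11.1% of all genes, and their median change was 1.33 against -0.13. Of them 7, namely Wap, Csn1s2b, Chrdl2, Lpo, Pigr, Cel and Btn1a1, rose with the block, where 0.312% of all genes did. Spp1 was not analysed here. The list was chosen with results of these data known, so its count is a description. The group split into genes that were already near the top of the scale on day 10 and genes that were not.

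The promoters of members of both kinds are shown for the presence of the palindrome TTCNNNGAA, the core that STAT5 binds. The 250 bases before the annotated start are given 5′ to 3′ on the gene's strand, from RefSeq on build GRCm38.p6, with matches in capitals. The motif equals its own reverse complement, so 1 search covers both strands. Csn1s1 (alpha-S1-casein, chr5:87665958-87666207, plus strand), Csn2 (beta-casein, chr5:87699426-87699675, minus strand) and Glycam1 (a mucin-like milk protein, chr15:103565082-103565331, minus strand) were high on day 10, and Wap (chr11:6638650-6638899, minus strand) was not.
Csn1s1: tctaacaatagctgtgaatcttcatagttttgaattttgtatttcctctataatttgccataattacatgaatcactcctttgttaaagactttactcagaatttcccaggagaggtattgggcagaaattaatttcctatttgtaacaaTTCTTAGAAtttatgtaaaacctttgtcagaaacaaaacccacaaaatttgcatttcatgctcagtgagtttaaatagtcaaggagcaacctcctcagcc
Csn2: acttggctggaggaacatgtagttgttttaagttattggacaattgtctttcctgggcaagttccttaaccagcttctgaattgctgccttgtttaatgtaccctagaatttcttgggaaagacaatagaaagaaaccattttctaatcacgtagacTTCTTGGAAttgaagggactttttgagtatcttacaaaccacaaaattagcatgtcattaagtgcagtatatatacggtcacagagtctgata
Glycam1: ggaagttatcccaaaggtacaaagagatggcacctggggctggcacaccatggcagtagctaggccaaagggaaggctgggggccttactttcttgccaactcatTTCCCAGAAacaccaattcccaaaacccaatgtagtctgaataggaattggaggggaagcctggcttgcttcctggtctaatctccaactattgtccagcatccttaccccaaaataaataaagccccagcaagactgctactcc
Wap: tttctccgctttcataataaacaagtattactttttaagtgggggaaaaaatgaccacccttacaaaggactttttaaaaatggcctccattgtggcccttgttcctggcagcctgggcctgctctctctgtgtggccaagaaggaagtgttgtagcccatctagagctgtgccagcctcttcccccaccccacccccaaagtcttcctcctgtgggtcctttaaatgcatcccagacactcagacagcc
The Csn1s1 window holds TTCTTAGAA from 100 to 92 bases before the start, the Csn2 window TTCTTGGAA from 93 to 85 bases before it, and the Glycam1 window TTCCCAGAA from 145 to 137. In the Wap window these letters were not found. Of the 15 milk protein genes with a promoter entry, 3 held the motif, and these are the 3 shown with capitals. The others with an entry held none and were not compared by their day-10 level. The windows shown therefore do not tell whether the motif goes with that level. Among genes with an entry, the motif stood in 131 of 1372 genes higher in late pregnancy (9.55%), in 155 of 2245 lower genes (6.9%) and in 891 of all 12290 (7.25%). A match is a description of these windows and does not show binding.

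The genes high on day 10 changed little. Csn2 was 13.25 and 13.71 on day 10, 13.95 on day 16 and 13.81 on day 19. Csn1s1 was 13.42 and 13.59, then 14.22 and 14.23, and Csn3, kappa-casein, was 13.85 and 13.61, then 13.95 and 14.06. Glycam1 was 13.58 and 12.55 on day 10 and 14.21 and 14.23 later. The late arrays of these genes lay above the day-10 arrays by 0.10 to 0.63, close to the highest value of any probe set, 14.28, and whether the signal was saturated was not tested. Csn2 was 3.28 and 9.39 on the mature luminal arrays of 9-week virgins, so its day-10 level already lay far above that of the virgins. Wfdc18, a small whey-type protein, was between 14.05 and 14.10 on all 4 arrays. For Csn1s2a another probe set gave a change of 4.55 against 0.75 from the one used, and for Csn3 another gave 2.54 against 0.28.

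Several other milk protein genes started low. Csn1s2b, a gene of the alpha-S2-casein type, was 5.33 and 6.35 on day 10, 9.84 on day 16 and 13.70 on day 19, a rise of 5.93 ± 1.12 (SE, adjusted p = 0.0275 with the block, 0.296 without), with day 19 above day 16. Chrdl2, which encodes a secreted chordin-like protein, was 2.42 and 5.44, then 10.95 and 10.64 (adjusted p = 0.00096 with the block, 0.154 without). It is counted here as a member of the list, and whether its protein is part of milk was not tested. Lpo, lactoperoxidase, was 2.28 and 5.02, then 9.53 and 9.89, with late arrays at least 4.51 above the day-10 arrays (adjusted p = 0.00417 with the block, 0.239 without). Values this low on day-10 replicate 1 lie under the median of that array, 4.57, and can include background. Lalba, alpha-lactalbumin, the regulatory part of lactose synthase, was 6.20 and 7.79 on day 10, 10.89 on day 16 and 11.82 on day 19. Its arrays did not overlap, but it missed the threshold with the block (change 4.36, adjusted p = 0.0967). Pigr, the receptor that carries immunoglobulin into milk, was 5.21 and 7.97, then 11.56 and 11.22 (adjusted p = 0.0333 with the block), and Cel, bile salt-stimulated lipase, was 7.10 and 8.18, then 10.21 and 12.30 (adjusted p = 0.018 with the block). Folr1, a folate receptor, and Muc1, a mucin of the apical membrane, were higher without passing (changes 3.38 and 1.43). Ltf, lactoferrin, did not start low and was highest on day 19: it was 11.28 and 9.91 on day 10, 10.09 on day 16 and 13.55 on day 19. Trh overlapped at low levels, between 0.97 and 3.55.

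**Figure D2:**
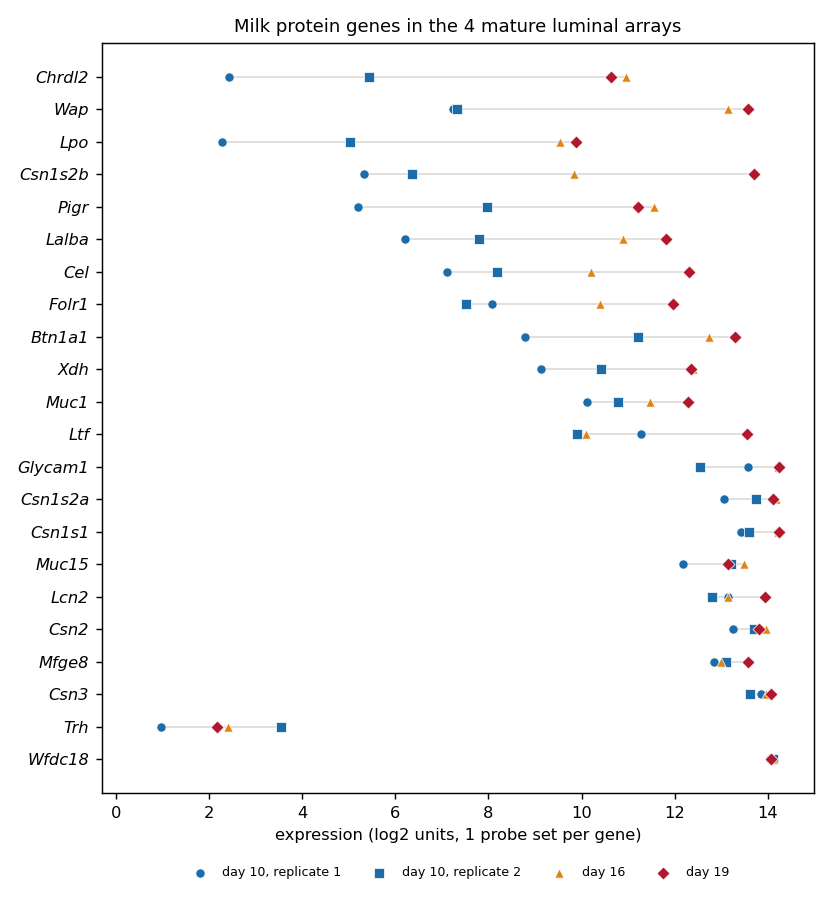
Expression in log2 units (x axis) of the 22 milk protein genes kept, 1 row per gene in order of change, with 1 point for each of the 4 mature luminal arrays. Chrdl2, Wap and Lpo have both late points far to the right of both day-10 points, while the caseins Csn1s1, Csn2 and Csn3 lie above 13 on every array.

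Genes of milk fat synthesis were higher together. In the fatty acid and triglyceride synthesis list 20 of 24 genes were higher, 83.3% against 11.1% of all genes. In it 1, Dgat2, was lower (4.17% against 18.4%), and the median change was 1.06. Thrsp, which promotes lipogenesis, was 3.38 and 8.64 on day 10, 12.75 on day 16 and 11.28 on day 19, a rise of 6.00 ± 0.97 (SE, adjusted p = 0.0135 with the block, 0.296 without). The 2 day-10 arrays differed by more than 5 log2 units for this gene, yet both late arrays lay above the higher one. It was the 1 member of the list that passed, and without day-10 replicate 1 its change was 3.38. Fasn, fatty acid synthase, was 9.24 and 11.14, then 12.95 and 12.21 (change 2.39, adjusted p = 0.0641 with the block). Acaca and Acacb, the acetyl-CoA carboxylases that supply it, had changes of 1.98 and 3.34 and adjusted p of 0.0864 and 0.0524 with the block. With all its probe sets averaged the change of Acacb was 2.22. Olah, the thioesterase that ends synthesis at medium chain lengths, was 7.60 and 10.06, then 12.40 and 12.39. Scd1, the desaturase, was already 12.65 and 13.12 on day 10 and was 13.61 and 14.06 later.

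For lipid uptake and the milk fat globule, 12 of 16 genes were higher and 0 lower, where 11.1% and 18.4% of all genes were. With the block 5 rose, where 0.312% of all genes did. Fabp3, a fatty acid binding protein, was 8.56 and 10.93 on day 10, 13.70 on day 16 and 14.02 on day 19 (change 4.12 ± 0.70, SE, adjusted p = 0.0167 with the block). Abcg2, which moves riboflavin and other compounds into milk, was 8.90 and 9.67, then 12.03 and 12.41 (adjusted p = 0.00805 with the block). Cd36, a fatty acid carrier at the surface, and Cidea, a lipid droplet protein, also rose (changes 2.96 and 3.92, adjusted p = 0.0195 and 0.0378 with the block). The change of Cd36 was 1.67 without day-10 replicate 1, and that of Cidea was 2.12 without day 19. Btn1a1, butyrophilin of the globule membrane, was 8.79 and 11.22, then 12.73 and 13.30 (change 3.01, and 1.80 without day-10 replicate 1, adjusted p = 0.0362 with the block). Its partner Xdh, xanthine oxidoreductase, was 9.13 and 10.42, then 12.40 and 12.34, and missed the threshold (adjusted p = 0.0648 with the block). In this list every higher gene had both late arrays above both day-10 arrays by the rule itself, and the size of the gap ranged widely: it was 2.77 for Fabp3 and 0.51 for Plin2 (perilipin 2: 12.92 and 12.63, then 13.43 and 13.68). Of 17 cholesterol synthesis genes 7 were higher (41.2% against 11.1%) and 0 lower, with a median change of 0.40 and none past the threshold. The largest named differences were Pmvk and Lss, at 1.82 and 1.76 (adjusted p = 0.0532 and 0.226 with the block).

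Lactose synthesis and milk transport had 9 of 18 genes higher and 2 lower. Slc34a2, a phosphate transporter, was 5.08 and 6.09 on day 10, 9.88 on day 16 and 9.61 on day 19 and rose with the block (change 4.16 ± 0.65, SE, adjusted p = 0.0113). Atp2b2, a plasma membrane calcium pump that secretes calcium into milk, was 2.89 and 2.54, then 5.90 and 8.31 (change 4.39, adjusted p = 0.0362 with the block). Its change was 2.38 with low values raised and 2.36 with all its probe sets averaged (adjusted p = 0.5 without the block). Atp2c2, a Golgi calcium pump chosen by its gap and not in the list, was 5.75 and 7.22, then 10.71 and 10.94 (adjusted p = 0.0113 with the block). B4galt1, the catalytic part of lactose synthase, was high throughout, at 11.64 and 11.71, then 12.83 and 12.95. Slc30a2, a zinc exporter, was 4.35 and 5.43, then 7.96 and 8.06 (adjusted p = 0.0628 with the block). The 2 lower genes were Aqp5, a water channel, and Slc5a8, a monocarboxylate transporter, at changes of -1.06 and -1.64. Amino acid transporters showed no common direction, with a median of -0.01. Of 17 genes 4 were higher (23.5% against 11.1% of all genes) and 2 lower (11.8% against 18.4%).

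Milk defence and acute phase genes were higher in 10 of 23 cases (43.5% against 11.1% of all genes) and lower in 2 (8.7% against 18.4%). With the block 6 rose, where 0.312% of all genes did: Lpo, Pigr, Saa1, Saa2, Lbp and Ccl28. Of these, Lpo and Pigr are also counted in the milk protein list. Saa2, serum amyloid A2, was 7.90 and 6.05 on day 10, 9.94 on day 16 and 13.47 on day 19 (change 4.73 ± 0.74, SE, adjusted p = 0.0113 with the block). Saa1 was 8.77 and 7.03, then 10.93 and 13.55, and day 19 was the highest array for both. Without day 19 the change of Saa2 was 2.96. Saa1 and Saa2 are close paralogs whose probe sets may share signal. Lbp, lipopolysaccharide binding protein, was 7.35 and 8.87, then 10.96 and 12.08. Ccl28, a chemokine that draws antibody-secreting cells to the gland, was 2.17 and 3.12, then 5.02 and 6.42, a change of 3.08 that became 0.99 with low values raised. Lcn2, lipocalin 2, overlapped between 12.79 and 13.93, and Hp, haptoglobin, was lower, at 7.83 and 8.52, then 5.59 and 5.79 (adjusted p = 0.17 with the block).

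Genes of the secretory machinery moved by less. Vesicle and Golgi transport had 11 of 28 genes higher (39.3% against 11.1% of all genes) and 0 lower (against 18.4%), with a median change of 0.39. ER folding and unfolded protein response had 6 of 25 higher (24.0%) and 0 lower, with a median of 0.07. Neither list had a gene past the threshold in either fit. Xbp1, a regulator of secretory capacity, was 11.97 and 11.96, then 12.76 and 12.25. Outside the lists, and named after their values were seen, Bhlha15, a transcription factor of secretory cells, was 5.06 and 6.50, then 10.69 and 8.73 (change 3.93, adjusted p = 0.0384 with the block), and Fkbp11, a prolyl isomerase of secretory cells, was 8.08 and 9.05, then 11.72 and 12.27 (change 3.43, adjusted p = 0.00805 with the block), while another of its probe sets gave 0.30. Oxidative phosphorylation had 7 of 20 genes higher (35.0% against 11.1%) and 0 lower, with a median of 0.36. The 13 cytosolic ribosomal protein genes were flat, with means of 13.36 and 13.30 on day 10, 13.21 on day 16 and 13.26 on day 19.

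Among the 15 genes per direction with the widest gap between the groups, several on the higher side belonged to none of the lists. Lao1, an L-amino acid oxidase, was 2.33 and 8.45 on day 10, 12.56 on day 16 and 12.97 on day 19, a rise of 7.38 ± 1.23 (SE, adjusted p = 0.0162 with the block) that ran from 4.32 without day-10 replicate 1 to 10.44 without replicate 2. Drd4, a dopamine receptor gene, was 2.51 and 2.72, then 9.85 and 6.45, and its day-16 array alone passed without the block (7.24 ± 1.03, SE, adjusted p = 0.0444). Gldc, glycine decarboxylase of the mitochondrial glycine cleavage system, was 5.23 and 6.28, then 10.54 and 9.80 (adjusted p = 0.00805 with the block). Hephl1, a copper-dependent oxidase, was 0.18 and 2.95, then 6.74 and 8.16, and its day-10 arrays lay below their medians. With low values raised the changes of Drd4 and Hephl1 were 3.42 and 2.72, against 5.54 and 5.88. The rest of the 15 were Atp13a4, Gm12863, Gm15471 and Gnb4, with changes of 3.99, 6.77, 3.87 and 3.34 (4.16 for Gm12863 and 1.59 for Gm15471 with low values raised), together with Wap, Chrdl2, Lpo, Csn1s2b, Pigr, Slc34a2 and Atp2c2.

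Prolactin and STAT5 signalling genes were higher in a share near that of all genes. Of 13 kept, 2 were higher (15.4% against 11.1%) and 0 lower (against 18.4%), with a median change of 0.21 against -0.13. Stat5a was 11.45 and 11.96 on day 10, 12.30 on day 16 and 11.53 on day 19. Elf5 was 10.52 and 11.90, then 12.67 and 11.39, so both genes overlapped. With all its probe sets averaged the change of Elf5 was 1.59, against 0.82 from the one used. The 2 higher genes were Cish, a STAT5 target that feeds back on the pathway (10.26 and 10.66, then 11.24 and 10.99), and Ghr, the growth hormone receptor (9.75 and 10.04, then 10.55 and 11.48). Prlr was not analysed here.

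On the lower side, genes of hormone sensing and paracrine signals stood out. Of 16 kept, 7 were lower and 1, Stc2, was higher, 43.8% lower against 18.4% of all genes, with a median change of -2.17. With the block 5 of the list fell, where 0.663% of all genes did: Cited1, Prom1, Tbx3, Igf2 and S100a6. The arrays of S100a6 overlapped, and its change was -0.16 without day 16. Cited1, a coactivator of the estrogen receptor that marks hormone-sensing luminal cells, was 7.46 and 8.49 on day 10, 3.35 on day 16 and 1.31 on day 19, and fell by 5.64 on the log2 scale (adjusted p = 0.0114 with the block, 0.0739 without). Both late values lay under their array medians, and with low values raised in the fit with the block the change was -3.40 and the call was lost (adjusted p = 0.121). Prom1, a surface protein of the same cells, was 8.62 and 8.54, then 4.01 and 4.63 (adjusted p = 0.00336 with the block). Tbx3, a transcription factor of hormone-sensing cells, was 8.83 and 9.05, then 6.92 and 6.64 (adjusted p = 0.04 with the block). Pgr, the progesterone receptor, was 7.37 and 9.03, then 4.87 and 4.07, a change of -3.73 (adjusted p = 0.0609 with the block). Its other probe sets differed, up to a change of 1.88. On the virgin mature luminal arrays Pgr was 11.60 to 11.75, so day 10 already lay below the virgins and the late arrays further below. Esr1 and Foxa1 overlapped: Foxa1, a pioneer factor of luminal cells, was 9.23 and 9.55, then 7.55 and 9.38. Gata3, a luminal regulator, stayed between 10.37 and 11.22. Tnfsf11, the RANK ligand through which progesterone signals to neighbours, was 3.30 and 9.22 on day 10, so its day-10 arrays differed too much to compare with 5.79 and 2.03.

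Of the insulin-like growth factor genes 6 of 14 were lower, 42.9% against 18.4% of all genes, and 0 higher. Igf2, a growth factor, was 9.54 and 10.08 on day 10, 5.71 on day 16 and 4.21 on day 19, a change of -4.85 ± 0.73 (SE, adjusted p = 0.00873 with the block, 0.148 without). Its other probe sets moved the same way by as little as -1.93. Unlike Cited1 and Prom1, Igf2 was low in 9-week virgins (3.82 and 3.40), so its day-10 level lay above both the virgin and the late arrays. Igf1r, the receptor, was 8.92 and 8.48, then 6.19 and 7.52 (adjusted p = 0.363 with the block), and another of its probe sets gave a change of 0.04.

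Among Notch pathway genes 9 of 17 were lower and 1 higher, 52.9% against 18.4%, with a median of -0.79. The lower genes included the targets Hey1, Hey2, Heyl and Nrarp and the ligand Jag1. Hey1 was 9.33 and 9.40 on day 10, 6.65 on day 16 and 8.22 on day 19, and Nrarp was 9.72 and 9.05, then 7.06 and 7.71. None passed, with adjusted p of 0.0971 and 0.0987 with the block. For Jag1 another probe set gave a change of 0.73 against -1.79. Hes1, another target, overlapped between 8.79 and 11.09. Wnt pathway genes were lower in 10 of 23 cases (43.5% against 18.4%) and higher in 1, with a median of -0.73. Wnt5a, a ligand, was 5.41 and 6.47, then 3.39 and 4.17 (adjusted p = 0.0543 with the block), Dkk3 was 7.70 and 7.86, then 6.03 and 4.33, and Axin2, a feedback target, was 7.05 and 6.95, then 6.17 and 5.28. ERBB ligands and receptors had 4 of 14 lower (28.6%) and 1 higher. The higher gene was Egf, at 3.79 and 5.09, then 7.08 and 7.27. The TGF-beta pathway had 5 of 19 lower, 26.3% against 18.4% of all genes, and 0 higher. Ltbp1, which binds latent TGF-beta, was 12.46 and 11.97, then 9.65 and 10.44, and fell with the block (-2.17 ± 0.32, SE, adjusted p = 0.00805).

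The remaining genes with the widest gaps on the lower side belong to several groups. Plac8 was 8.64 and 9.82 on day 10, 4.92 on day 16 and 5.18 on day 19 (adjusted p = 0.0075 with the block). Ptx3, a secreted pentraxin, was 8.28 and 8.33, then 4.88 and 5.09, and Clip4 was 7.15 and 6.76, then 2.15 and 2.53 (adjusted p = 0.0195 and 0.00431 with the block). Col12a1, a collagen gene, Ugt8a, a galactosyltransferase of glycolipid synthesis, and Csmd1 also fell with the block, by 3.70, 4.06 and 4.36 on the log2 scale. Late values of Clip4, Col12a1, Ugt8a and Csmd1 lay under the array medians. With low values raised in the fit with the block, these 4 calls were lost, at changes of -2.38, -1.54, -2.38 and -0.68 and adjusted p of 0.0945, 0.365, 0.0963 and 0.277. Snorc, Kcne2, Nebl and Elovl4 did not pass, with changes from -4.37 to -3.39. For Csmd1 and Nebl another probe set gave a change of the opposite sign, 0.43 and 0.70. With all probe sets averaged the changes of Clip4 and Col12a1 were -2.78 and -2.16. Mmp14, a membrane-bound matrix protease from the involution and cell death list, was 9.25 and 9.29, then 6.51 and 6.59 (adjusted p = 0.00539 with the block). Of that list 4 of 20 were lower, close to the 18.4% of all genes, and 0 higher. Cldn10, a claudin, fell within the luminal keratins and junctions list, from 6.24 and 8.32 to 4.38 and 1.03 (-4.58, adjusted p = 0.018 with the block). Both late values lay under their array medians, and with low values raised as well the call was lost (-2.70, adjusted p = 0.0931), while without day 19 the change was -2.90. Of the 20 genes of that list 4 were lower, a share close to the 18.4% of all genes. In it 1 was higher, a share below the 11.1% of all genes.

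**Figure D3:**
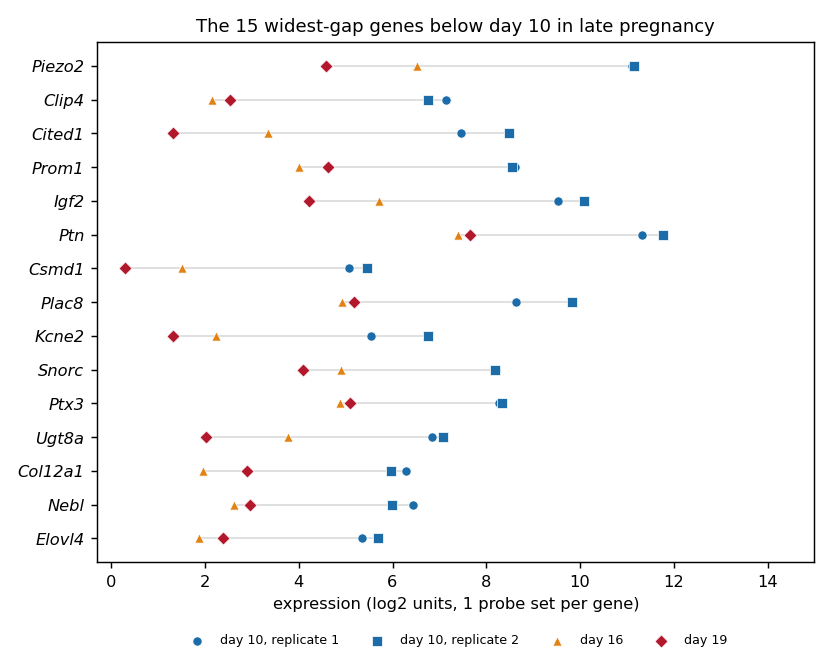
Expression in log2 units (x axis) of the 15 genes with the widest gap on the lower side, 1 row per gene in order of gap, with 1 point for each of the 4 arrays. In every row both late points lie left of both day-10 points, and for Piezo2 the 2 day-10 points nearly coincide at 11.10 and 11.16.

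Cell cycle genes were lowest on day 19. The list had 11 of 29 genes lower (37.9% against 18.4%) and 0 higher, and day 19 was the lowest of the 4 arrays for 28 of the 29, against 5113 of all 15378 genes. The median difference of day 19 from day-10 replicate 1 was -2.18, and that of day 16 from day-10 replicate 2 was -0.28. Mki67, a proliferation marker, was 9.63 and 10.25 on day 10, 10.21 on day 16 and 6.79 on day 19. Top2a, a topoisomerase of dividing cells, was 10.53 and 10.40, then 9.78 and 6.93, Ccna2 was 9.52 and 9.54, then 9.28 and 6.29, and Aurkb was 7.31 and 7.47, then 7.03 and 1.72. Day 19 lay near the 9-week virgins, in which Mki67 was 6.98 and 7.09. No gene of the list passed the late contrast in either fit. Uhrf1, which guides DNA methylation at replication, followed the same course, at 10.78 and 10.82, then 9.88 and 7.86. Of the 19 DNA and histone methylation enzymes 7 were lower (36.8% against 18.4%) and 1 higher, with a median of -0.40. Dnmt1 was 11.95 and 11.71, then 11.06 and 11.63, and Dnmt3a was 9.55 and 10.22, then 8.91 and 9.11 (adjusted p = 0.371 with the block).

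The single days were also tested on their own. Both comparisons share the day-10 arrays, so their counts are not independent of each other. Day 16 differed from day 10 in 1 higher gene, Drd4 (0.0065%), and 5 lower genes, Piezo2, Ptn, Dsp, Ets1 and Tm4sf1 (0.0325%), and with the block in 14 and 121 (0.091% and 0.787%). Day 19 differed in 0 higher genes (0.0%) and 2 lower genes, Piezo2 and Ptn (0.013%), with 970 genes at an unadjusted p under 0.05, and with the block in 43 and 62 (0.28% and 0.403%). Leaving out day-10 replicate 2 raised the day-16 count to 9 genes and leaving out replicate 1 gave 4.

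A number of genes were far from day 10 on 1 late array only. Day 16 was at least 2 log2 units below both day-10 arrays, with day 19 not below both, for 106 genes, and day 19 was so with day 16 not below both for 164. Upward the counts were 25 and 49. Both late arrays were at least 2 units below for 67 genes and at least 2 above for 61. Genes low on day 16 alone included Aldh1a3, a luminal progenitor marker (12.42 and 11.05 on day 10, 7.60 on day 16, 11.27 on day 19), S100a6 (13.56 and 11.70, then 8.43 and 12.47) and Osmr, the oncostatin M receptor (10.64 and 10.22, then 6.35 and 10.39). Aldh1a3 and Osmr passed the late contrast with the block (-2.30 and -2.06), and without day 16 their changes were -0.46 and -0.04. Ereg, an ERBB ligand, was 8.33 and 7.75, then 3.08 and 7.71, so that day 19 lay just below the lower day-10 array. Each day has 1 array, so day and array cannot be told apart. The luminal progenitor and alveolar markers as a list had 2 of 16 higher, 12.5% against 11.1% of all genes. In that list 4 were lower, a share somewhat above the 18.4% of all genes.

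**Figure D4:**
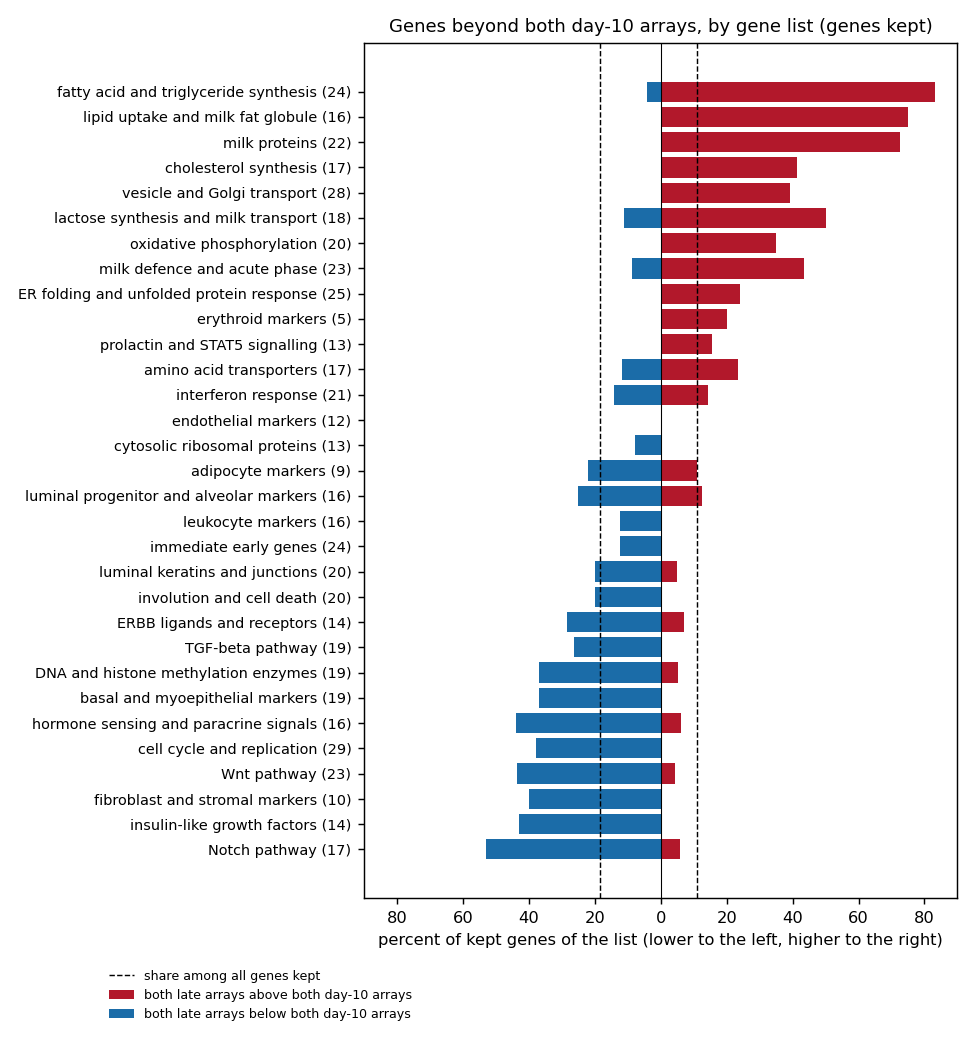
Share of the kept genes of each of the 31 lists (number in brackets) with both late arrays above both day-10 arrays (red, to the right) or below both (blue, to the left), in percent. Dashed lines mark the shares among all genes kept, 11.1% and 18.4%. Fatty acid and triglyceride synthesis, lipid uptake and milk proteins reach 72.7% or more on the right, and the Notch pathway reaches 52.9% on the left.

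Markers of other cell types were read against the 18.4% of all genes that were lower and the 11.1% that were higher. Of the 19 basal and myoepithelial markers 7 were lower (36.8%) and 0 higher, of the 10 fibroblast and stromal markers 4 and 0, of the 16 leukocyte markers kept 2 (12.5%) and 0, of the 9 adipocyte markers 2 (22.2%) and 1, of the 12 endothelial markers 0 and 0, and of the 5 erythroid markers 0 and 1. None passed in either fit. The gap of a lower gene is measured from the lower of the day-10 arrays, while the fitted changes use both. The part that the leukocyte and stromal RNA on day-10 replicate 2 has in these values was not tested. Of the 24 immediate early genes, which respond to tissue dissociation, 3 were lower and 0 higher, with a median of -0.06, and of the 21 interferon response genes 3 were higher and 3 lower.

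The same days were compared in the other cell types. Stem cells have 2 arrays of day 10 and 1 of day 16. Wap was 6.59 and 5.17 on day 10 and 12.19 on day 16 in stem cells, a difference of 6.31 against 5.86 in mature luminal cells. Of the 1711 genes higher in late mature luminal cells, 781 (45.6%) also had the day-16 stem cell array above both day-10 stem cell arrays, against 35.3% of all genes, and of the 2829 lower genes 1209 (42.7%) were below, against 32.6%. The change differed between the cell types for Ptn and Dsp in the fit with the block. Ptn was 12.72 and 12.28 on day 10 and 12.06 on day 16 in stem cells, and the difference between the 2 cell types was -3.71 ± 0.48 (SE, adjusted p = 0.0968, and 0.0131 with the block). Dsp was 13.55 and 12.68, then 12.43, a difference between the cell types of -4.16 ± 0.75 (SE, adjusted p = 0.668, and 0.0131 with the block). Without the block limma called 0 genes (0.0% in each direction), with 373 at an unadjusted p under 0.05, and with it 0 higher and 2 lower (0.013%).

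Luminal progenitors have 1 array of each day, and their values went the other way. Wap was 12.74 on the array labelled day 10 and 6.94 on the array labelled day 16, Thrsp was 11.95 and 7.84, Piezo2 was 7.30 and 10.68, and Cited1 was 4.14 and 7.55. Of the 1711 genes higher in late mature luminal cells, 1367 (79.9%) were lower on the progenitor array labelled day 16 than on that labelled day 10, against 46.4% of all genes, and of the 2829 lower genes 2398 (84.8%) were higher, against 53.0%. The difference between mature luminal cells and progenitors in the change from day 10 to day 16 passed for 4 higher and 15 lower genes (0.026% and 0.0975%), and with the block for 30 and 179 (0.195% and 1.16%). This contrast was chosen after the values were seen. Each progenitor array stands for its day alone, so day and array cannot be told apart. If the 2 day labels were exchanged, which was not tested, each progenitor difference would change its sign and the counts of this contrast would not hold.

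**Figure D5:**
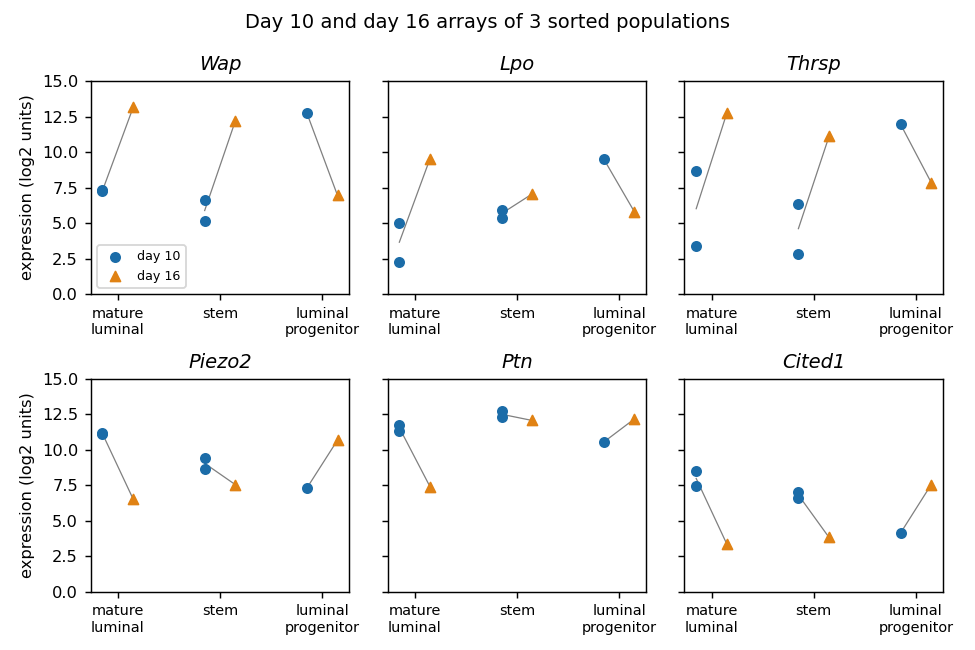
Expression in log2 units (y axis) of 6 genes on the day-10 arrays (blue circles) and day-16 arrays (orange triangles) of mature luminal cells, stem cells and luminal progenitors, with lines from the day-10 mean to the day-16 value. Wap goes from 7.24 and 7.32 to 13.14 in mature luminal cells, up in stem cells and down between the progenitor arrays as labelled.

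At the edge of the rule, genes with a change of more than 1 log2 unit were decided by hundredths. Gchfr was just inside on the higher side (4.79 and 4.13, then 6.36 and 4.80) and Tmem144 just outside (8.47 and 7.63, then 8.47 and 9.98). On the lower side Zfp788 was just inside (5.87 and 5.44, then 5.43 and 3.11) and Tacc3 just outside (9.46 and 9.87, then 9.46 and 7.18).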

How the data were processed

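The authors deposited log2 expression values for 45101 probe sets on 23 Affymetrix arrays, and the values used here run from 0.0 to 14.28. The log2 scale was read from the values. The sources used here do not name the software behind them. A low value can include background, and no detection calls were used. Biotinylated cRNA was made from mRNA, per the labels' protocols. Probe sets were named by the platform annotation: 34945 had 1 symbol, 932 had several and 9160 had none. These covered 18193 genes, and the 15378 above the 40th percentile of an array on at least 2 arrays were kept.

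One mean per group of stage and cell type (16 groups) was estimated over all 23 arrays by limma 3.58.1 (R 4.3.3) with an intensity trend, 7 residual and 4.74 prior degrees of freedom. The late contrast is the mean of day 16 and day 19 minus the day-10 mean. Tests were two-sided, with Benjamini-Hochberg adjustment over all 15378 genes, and the spread came from the 7 groups that hold 2 arrays, which single arrays are taken to share. The fit was tested on simulated data. For arrays, their number limits the precision.

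Title numbers pair the arrays: all 21 pairs of the 7 groups with numbers 1 and 2 had correlated deviations above 0.1, from 0.303 to 0.682. Arrays without a number were placed with the number they lay closer to, which put day 16 with replicate 2. The labels do not say what the number stands for.

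The lists share some members, and such a gene is counted in each of its lists, so list counts are not separate. The groups compared, the 31 gene lists (608 members, 559 kept) and the naming rule were chosen with earlier results of these data known. The rule takes the 15 genes per direction with the widest gap between the groups whose higher group lies above the array median on each of its arrays, up to 10 per direction past the test, all milk protein genes, up to 4 members of each other list with the smallest p, and a set of keratin, receptor and regulator genes. Other genes in the text were named after their values were seen. Alternatives covered probe choice, filter, scaling, low values, the block, each array left out, arrays in the fit and the moderation.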

Additional observations from a re-analysis of the deposited data

Results flagged for a closer look

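The change from day 10 to day 16 differed between mature luminal and stem cells for Dsp (-4.16, adjusted p = 0.0131) and Ptn (-3.71, adjusted p = 0.0131) in the limma fit with the replicate block. In the fit without the block neither passed (adjusted p = 0.668 and 0.0968).

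Between mature luminal cells and luminal progenitors the same change differed for 19 genes without the block and 209 with it. Among the genes named by the rule that passed in both fits, the differences with the block were 12.61 for Drd4, 11.51 for Wap and 8.84 for Gldc on the higher side. On the lower side they were -8.03 for Piezo2, -6.90 for Osmr, -6.20 for Dsp, -5.81 for Jag1 and -5.78 for Ptn. The adjusted p with the block lay between 0.000123 for Piezo2 and 0.0093 for Jag1. The naming rule drew largely on mature luminal arrays that also enter these differences, so their size is partly set by the choice. The progenitor side of each difference rests on 1 array per day, whose spread was taken from other groups. It also rests on the day labels of these 2 arrays: whether they are exchanged was not tested, and if they were, these differences would not hold.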

How the results depend on the processing

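The late contrast called 4 genes without the block, 150 with it, 47 with values under the array median raised to it and 215 with both, and 1 with all probe sets averaged, 2 with no filter, 2 with no intensity trend, 2 with robust moderation and 0 with mature luminal arrays only. Leaving out 1 array gave 2 to 6 genes. Piezo2 was called in each of these settings except with mature luminal arrays only, where its adjusted p was 0.105. Of the calls 1 of 4 was higher without the block, 33 of 47 with low values raised, 122 of 215 with both and 0 of 3 after quantile normalization. Day 16 alone called 6 genes, 135 with the block, 46 with low values raised, 191 with both, 0 with averaged probe sets, 3 with no trend and 0 with mature luminal arrays only (4 to 9 with 1 array left out). Day 19 called 2, 105 with the block, 111 with the block over numbered arrays only, 34 with low values raised, 195 with both, 1 with averaged probe sets and 0 with mature luminal arrays only (2 with any 1 array left out). The difference from stem cells called 0 genes, 2 with the block, 1 with low values raised and 46 with both (0 with any 1 array left out), and could not be fitted from mature luminal arrays only. The non-overlap rule gave 4540 genes, and 3567 to 5395 under the other values and filters. It gave 9192 when each late array was set only against the day-10 array of its number, as placed for day 16. With 1 array left out it gave 8276 to 11375. Pairing by number and leaving out an array each ask for fewer comparisons. The causes of the other changes were not tested.

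Named genes gave 2320 combinations with the settings, of which 2176 kept direction and side of the threshold, 93 passed only under the alternative, 20 lost the call and 31 turned. Epor and Trh turned to -0.15 with low values raised, with and without the block, and Wfdc18 to -0.03 after quantile normalization. With 1 array left out the changes ran from -0.27 to 2.81 for Alas2, -2.70 to 0.26 for Cldn5, -1.58 to 0.25 for Esam, -1.41 to 0.03 for Esr1, -1.32 to 0.10 for Hdac1, -1.23 to 0.32 for Jak2, -0.37 to 0.15 for Krt18, -2.16 to 0.16 for Krt7, -0.06 to 0.10 for Krt8, -0.50 to 2.96 for Ltf, -3.15 to 0.27 for Mki67, -0.46 to 0.91 for Plvap, -0.89 to 0.05 for Rps6, -2.67 to 0.09 for Slc7a2, -0.17 to 0.60 for Stat5a, -1.01 to 0.26 for Tjp1, -1.26 to 1.32 for Trh, -1.64 to 0.34 for Vwf and -0.02 to 0.03 for Wfdc18. With 4 arrays, and 1 array for each late day, the number of arrays limits what can be told, and differences from values near background are no exact folds.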
